A study of Mus musculus with 19 samples.

Results

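The report concerns 10 genes of oxidant and antioxidant metabolism in the pressure-overloaded mouse left ventricle. They are the oxidant-producing enzyme gene Nox4, the superoxide dismutase genes Sod1, Sod2 and Sod3, the peroxide-removing enzyme genes Cat, Gpx1, Gpx3 and Prdx3, and the inducible defence genes Hmox1 and Nqo1. They were taken by name from the array annotation as every probe set assigned to exactly 1 of these symbols, which gave 20 of the 45101 probe sets. Where a gene had several, the brightest on average was the main one and the others were read beside it; arrays numbered 19. All 10 genes passed the filter on low signals, a log2 signal above 4 on at least 5 arrays, and were tested among 10733 genes. The groups were 7 banded mice with heart failure, 7 banded mice without heart failure and 5 sham-operated mice, with 1 array of left ventricular RNA per mouse. All were male C57BL/6 mice operated on at 7 weeks of age and killed 4 weeks later, and no group carried a transgene or a drug. Banding narrows the aorta and so loads the ventricle with pressure, whereas sham mice had the operation without the band. The labels do not state by which criterion heart failure was called in banded mice. Lung weight over tibia length, as an index in the labels, was 17.92 to 24.62 in banded mice with heart failure, 8.52 to 10.83 in banded mice without heart failure and 8.2 to 9.38 in sham mice.

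Reactive oxygen species are made and removed by separate enzymes. NADPH oxidases pass electrons from NADPH to oxygen; Nox4 is the family member found in cardiomyocytes, fibroblasts and endothelial cells, releases mainly hydrogen peroxide, and is active without the cytosolic activator subunits that other family members need. Superoxide dismutases turn superoxide into hydrogen peroxide in the cytosol (Sod1), the mitochondrial matrix (Sod2) and outside the cell (Sod3). Catalase (Cat), the glutathione peroxidases (Gpx1 inside cells, Gpx3 secreted) and the mitochondrial peroxiredoxin Prdx3 then remove hydrogen peroxide. Hmox1, which breaks down heme, and Nqo1, which reduces quinones, are textbook targets of Nrf2, the transcription factor that acts through antioxidant response elements.

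Promoter windows running from 250 bases before to 50 bases after the RefSeq gene start on build GRCm38.p6 were matched for 8 of the 10 genes, all but Hmox1 and Sod3. The windows of Nox4, Gpx3 and Sod2 are shown because these genes had the largest rise, the largest rise among the peroxide-removing enzymes and a fall on all of the gene's probe sets. The capitals mark GC boxes (GGGCGG on either strand, the kind of element bound by the Sp1 family).
Nox4 (chr7:87246399-87246698, plus strand): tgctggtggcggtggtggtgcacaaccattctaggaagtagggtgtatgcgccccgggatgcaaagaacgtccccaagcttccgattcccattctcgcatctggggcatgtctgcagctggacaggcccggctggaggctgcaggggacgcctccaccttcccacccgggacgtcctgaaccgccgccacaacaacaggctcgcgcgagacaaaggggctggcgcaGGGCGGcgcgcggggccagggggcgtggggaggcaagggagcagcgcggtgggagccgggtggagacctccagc
Gpx3 (chr11:54902604-54902903, plus strand): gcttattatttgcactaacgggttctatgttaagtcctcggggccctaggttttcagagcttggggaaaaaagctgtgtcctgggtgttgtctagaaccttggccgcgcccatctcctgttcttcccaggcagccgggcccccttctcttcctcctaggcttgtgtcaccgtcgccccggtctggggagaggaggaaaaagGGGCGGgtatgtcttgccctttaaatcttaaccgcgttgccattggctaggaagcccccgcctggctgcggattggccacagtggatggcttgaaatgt
Sod2 (chr17:13007589-13007888, plus strand): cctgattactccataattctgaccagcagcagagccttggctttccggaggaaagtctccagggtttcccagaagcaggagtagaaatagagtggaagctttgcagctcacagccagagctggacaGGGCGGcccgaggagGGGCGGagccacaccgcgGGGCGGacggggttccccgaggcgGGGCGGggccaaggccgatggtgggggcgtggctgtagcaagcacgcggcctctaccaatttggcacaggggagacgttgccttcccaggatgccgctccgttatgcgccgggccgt
A GC box lay in 8 of the 8 windows, against 35.7% of all 32851 RefSeq promoter windows of that length. All windows were taken, without matching for GC content or expression, so the share is not that of similar genes. The antioxidant response element core (TGACNNNGC, both strands) lay in 1 of the 8, that of Sod1, against 12.4% of all windows. An AP-1 site (TGANTCA, both strands) lay in 0 of the 8, against 7.81% of all windows. The antioxidant response element and the AP-1 letters can share bases, since both can start with TGA. These matches describe letters in a short window and are not measured binding sites, and Nqo1, a known Nrf2 target, had no match to the core in its window.

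The deposited signals were log2 values between 2.19 and 16.77, and the number of arrays, not a read depth, limits their precision. The cardiomyocyte genes Myh6, Tnnt2, Myl2 and Actc1 had log2 signals of at least 15.50 on all 19 arrays. An 18S ribosomal RNA control probe set separated 6 arrays with high signal (sham mice 1 to 3 and banded mice without heart failure 5 to 7) from 13 with low signal, which held all 7 arrays of mice with heart failure. The difference between the 3′ and 5′ actin control probe sets, a measure of RNA integrity, was 0.661 to 0.905 in banded mice with heart failure, 0.672 to 0.898 in banded mice without heart failure and 0.943 to 1.024 in sham mice. It was lower by 0.174 in banded mice with heart failure than in sham mice (exact two-sided permutation test, p = 0.00253, adjusted over 3 comparisons p = 0.0038). Among 8 fibroblast marker genes, 7 rose in banded mice with heart failure and 6 in banded mice without heart failure against sham mice, and their mean log2 signal was 11.96 to 12.39, 11.21 to 11.97 and 10.50 to 11.33 in banded mice with heart failure, banded mice without heart failure and sham mice. Of 10 macrophage and leukocyte markers 0 passed limma's moderated test in any of the 3 comparisons, where 2 in heart failure against sham, 0 without heart failure against sham and 1 between the banded groups had an unadjusted p under 0.05. The mean log2 signal of 4 atrial markers other than Nppa and Bmp10 ranged over mice from 4.91 to 12.63 in banded mice with heart failure, 8.60 to 12.36 in banded mice without heart failure and 7.47 to 11.61 in sham mice. Between the banded groups the 5 atrial markers tested, Nppa included, had a median difference of -2.63 log2 units. Of these 5, 2 were called lower in heart failure and 0 higher by limma's moderated test, and 4 were lower at an unadjusted p under 0.05.

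In banded mice with heart failure, 6 of the 10 genes differed from sham mice: Nox4, Gpx3, Sod3 and Gpx1 rose, and Sod2 and Prdx3 fell, while Sod1, Cat, Hmox1 and Nqo1 did not pass (limma's moderated test, Benjamini-Hochberg adjusted p under 0.05 over all genes). Against these 4 genes higher and 2 lower, 20.4% of all genes tested rose and 18.9% fell in the same comparison. The groups did not overlap for 3 genes that were higher (Nox4, Gpx1, Gpx3) and 2 that were lower (Sod2, Prdx3), whereas 17.6% of all genes did not overlap. The median log2 change of the 10 genes was 0.259, against 0.0062 for all genes. In banded mice without heart failure, Nox4, Sod3 and Gpx3 rose and Sod1 and Prdx3 fell against sham mice, beside 10.8% of all genes higher and 6.53% lower. On its main probe set none of the 10 genes separated these groups completely, whereas 7.67% of all genes did; 1 other probe set, of Sod2, did. Between the banded groups, Nox4 and Gpx1 were higher and Sod2 was lower in mice with heart failure, beside 3.83% of all genes higher and 5.65% lower, and the groups did not overlap for Gpx1 only among the 10, against 2.64% of all genes. Of all calls, 52% were higher in banded mice with heart failure than in sham mice, which became 40.9% after a further quantile normalization and 37.9% after setting array medians equal. In banded mice without heart failure the share of calls higher than sham was 62.4%, and 49.3% and 45.1% under those scalings. Both comparisons with sham share the same 5 sham mice. In ventricular tissue a smaller share of a cell type and less RNA per cell cannot be told apart.

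**Figure D1:**
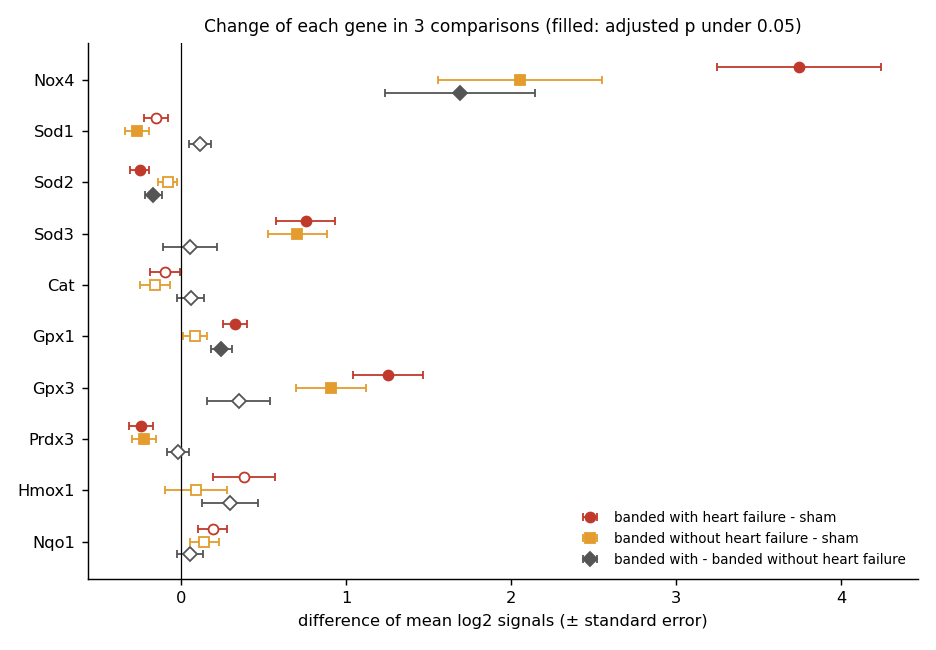
Difference of mean log2 signals (horizontal axis, ± standard error of the fit) for each of the 10 genes in the 3 comparisons, filled where the adjusted p was under 0.05. Nox4 lies furthest to the right in each comparison, at 3.74, 2.05 and 1.69, and Sod2 and Prdx3 lie left of 0.

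Nox4 rose more than any of the other 9 genes in all 3 comparisons, and its signal was highest in banded mice with heart failure, intermediate in banded mice without heart failure and lowest in sham mice. The lowest, median and highest log2 signals were 7.00, 7.85 and 9.22 in banded mice with heart failure, 4.35, 6.56 and 7.43 in banded mice without heart failure, and the 5 sham mice had 4.31, 4.84, 4.36, 4.14 and 2.99. All 7 mice with heart failure lay above all sham mice; the banded mice without heart failure were widely spread, 1 at 4.35 inside the sham range and 3 of 7 between 7.00 and 7.43, inside the heart failure range. The difference between mice with heart failure and sham mice was 3.74 ± 0.497 log2 units (SE; adjusted p = 1.23e-05). Between mice without heart failure and sham mice it was 2.05 ± 0.497 (adjusted p = 0.00842), and between the banded groups 1.69 ± 0.454 (adjusted p = 0.0262). No fold is given because all sham signals lay near or under the filter of 4, that of sham mouse 5 under it. The size of the differences from sham is therefore uncertain.

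The dimmer Nox4 probe set passed the filter through the banded mice, with 7 of 7 arrays above 4 in heart failure, 6 of 7 without heart failure and 1 of 5 in sham. Its log2 signals were 5.12, 5.88 and 7.63 (lowest, median, highest) in banded mice with heart failure, 3.57, 4.76 and 5.37 in banded mice without heart failure and 3.71, 3.78, 4.07, 3.15 and 3.37 in sham mice. Both probe sets put banded mouse 5 with heart failure highest and banded mouse 2 without heart failure lowest of its group. No difference from sham is given for it, since 4 of 5 sham signals lay under the filter. In the fit over 20497 probe sets it differed by 1.50 between the banded groups (adjusted p = 0.0115), with 1 of the 14 banded arrays under the filter.

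The rise of Nox4 against sham mice in heart failure was called in all 12 alternatives and all 19 fits that left out a mouse, with log2 differences of 2.95 to 4.30. In the 13 arrays of low 18S signal Nox4 averaged 7.87 in mice with heart failure, 6.42 in mice without heart failure and 3.57 in the 2 sham mice. Within the 3 ranges (series) into which the animal numbers of the labels fall, each holding all groups but 2 of them only 1 sham mouse, mice with heart failure exceeded sham mice by 3.18, 3.28 and 5.31 log2 units. In the first series the sham arrays, mice 1 to 3, were of high 18S signal and the heart failure arrays, mice 1 and 2, of low 18S signal. For every gene, a difference between these groups in that series cannot be told apart from the 18S sets. The 5.31 rests on sham mouse 5 alone, whose signal of 2.99 lay under the filter of 4. Sham mouse 5 is also 1 of the 2 sham mice of low 18S signal. The call of mice without heart failure against sham mice was lost in the low 18S arrays (2.85, adjusted p = 0.0642), in the high 18S arrays (1.37, adjusted p = 0.102) and with the actin difference as a covariate (1.25, adjusted p = 0.24). The call between the banded groups was lost without the filter (adjusted p = 0.059), in the low 18S arrays (1.46, adjusted p = 0.182), with the atrial markers as a covariate (1.70, adjusted p = 0.0725) and without banded mouse 5 or 6 without heart failure or banded mouse 2 with heart failure (adjusted p up to 0.0667). Between the banded groups 4 of the 8 fibroblast markers were called higher in heart failure by limma's moderated test, beside 3.83% of all genes. They were Postn, Col1a2, Col1a1 and Dcn, by 1.07, 0.93, 0.87 and 0.36 log2 units. The other 4 were not called, and 6 of the 8 were higher at an unadjusted p under 0.05. The part of fibroblasts in the Nox4 signal was not tested.

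**Figure D2:**
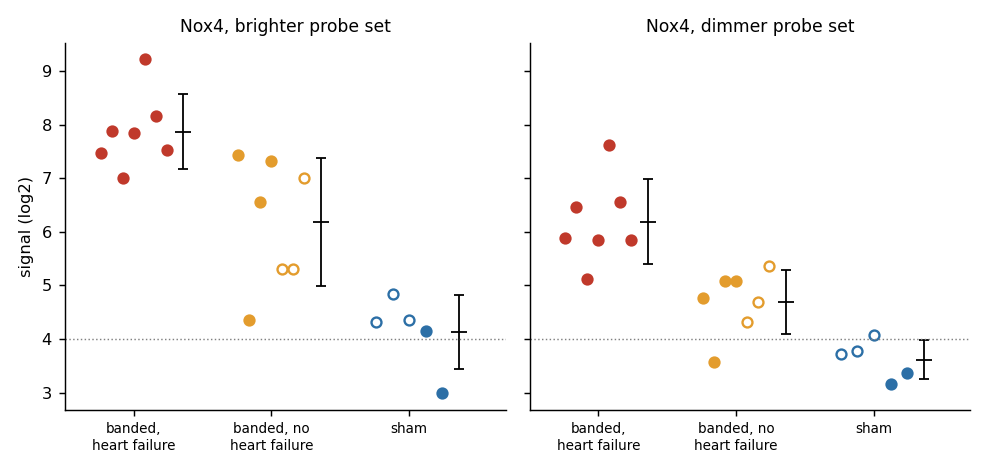
Log2 signal of the brighter (left) and dimmer (right) Nox4 probe set in each mouse, with the group mean and SD beside the points. Open circles are arrays of high 18S signal and the dotted line is the filter at 4. On the brighter probe set the 7 mice with heart failure lie between 7.00 and 9.22 and the 5 sham mice between 2.99 and 4.84.

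Among the superoxide dismutases, the mitochondrial Sod2 fell in heart failure, the extracellular Sod3 rose in both banded groups, and the cytosolic Sod1 fell in banded mice without heart failure on its main probe set only. Sod2 had log2 signals of 13.89, 13.99 and 14.07 (lowest, median, highest) in banded mice with heart failure, 14.05, 14.14 and 14.33 in banded mice without heart failure and 14.23, 14.32, 14.21, 14.35 and 14.13 in sham mice. All mice with heart failure lay below all sham mice, while mice without heart failure overlapped both groups. The change was small, a fall of 0.25 log2 units against sham (SE 0.0562, adjusted p = 0.00162), or 1.19-fold lower. On this probe set mice without heart failure differed from sham mice by -0.08 (adjusted p = 0.336), and mice with heart failure from those without by -0.17 ± 0.0513 (adjusted p = 0.0436).

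The 4 probe sets of Sod2 were all lower in heart failure than in sham without overlap. Their differences were -0.25, -0.28, -0.51 and -1.18 log2 units, the last on the dimmest one, where mice with heart failure had 5.52 to 6.34 and sham mice 6.63 to 7.78. The size of the fall therefore depended on the probe set, with the direction shared by all 4. The dimmest probe set was also brighter on high 18S arrays, which hold no mouse with heart failure. There sham mice 1 to 3 had 7.17 to 7.78, and the other 2 sham mice 6.63 and 6.85. Banded mice 5 to 7 without heart failure had 6.73 to 7.57, and mice 1 to 4 of that group 6.24 to 6.55. Banded mice without heart failure were also lower than sham on 1 of these probe sets (-0.36, adjusted p = 0.0069), where they had 10.97 to 11.42 and sham mice 11.46 to 11.77, and the mean of the gene's probe sets gave -0.25 (adjusted p = 0.0248). Between the banded groups the dimmest probe set differed by -0.75 (adjusted p = 0.0308), whereas the brightest was not called in the fit over probe sets (adjusted p = 0.0586). In the fit over genes the call between the banded groups was lost after a further quantile normalization (-0.14, adjusted p = 0.0883), in the low 18S arrays (-0.20, adjusted p = 0.114) and in 12 of 19 fits that left out a mouse (adjusted p up to 0.0928).

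Sod3, which is secreted and bound to heparan sulfate outside cells, had log2 signals of 9.41, 9.75 and 10.29 (lowest, median, highest) in banded mice with heart failure, 9.20, 9.76 and 9.89 in banded mice without heart failure and 9.11, 8.41, 9.65, 8.95 and 8.88 in sham mice. The banded groups overlapped over most of their range, and sham mouse 3 reached into both. Sod3 rose 1.69-fold in heart failure (0.75 ± 0.179, adjusted p = 0.00264) and 1.63-fold in banded mice without heart failure (0.70 ± 0.179, adjusted p = 0.0113). Between the banded groups the difference was 0.05, with a 95% interval from -0.29 to 0.39. Its other probe set differed by 0.91 and 0.63 from sham in mice with and without heart failure. The call in mice without heart failure was lost in the low 18S arrays, in the high 18S arrays and with the actin covariate, where the log2 difference stayed between 0.65 and 0.75 over all alternatives and the adjusted p reached 0.135.

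Sod1 was lower in banded mice without heart failure than in sham mice by 1.20-fold, a difference of -0.27 ± 0.0725 (adjusted p = 0.0169). Its log2 signals were 13.08, 13.26 and 13.29 (lowest, median, highest) in banded mice with heart failure, 12.89, 13.14 and 13.28 in banded mice without heart failure and 13.39, 13.19, 13.37, 13.42 and 13.40 in sham mice. Apart from sham mouse 2, the sham mice lay above every banded mouse. In heart failure the difference from sham was -0.16 (adjusted p = 0.0966), which was called with the mean of the gene's probe sets and with equal array medians. Of the 4 other Sod1 probe sets 1 did not pass the filter, and 1 was lower in heart failure (-0.49, adjusted p = 0.00903), a probe set that was also brighter on the high 18S arrays of sham mice 1 to 3 (7.49 to 7.74) than on the other 2 sham arrays (6.91 and 7.12). None of the other probe sets that passed the filter was called in mice without heart failure against sham. Their differences there were -0.05, -0.29 and -0.11 (adjusted p = 0.728, 0.154 and 0.636 in the fit over probe sets). In mice without heart failure the call on the main probe set was lost with the mean of the probe sets (-0.18, adjusted p = 0.0569), in the low 18S arrays (-0.31, adjusted p = 0.136), in the high 18S arrays (-0.25, adjusted p = 0.146) and with the actin covariate (-0.12, adjusted p = 0.427). The 18S sets hold fewer arrays, and the differences there were about as large as over all arrays.

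The peroxide-removing enzymes split. The glutathione peroxidase genes Gpx3 and Gpx1 rose, the peroxiredoxin gene Prdx3 fell, and Cat did not pass in any comparison. Gpx3, the secreted glutathione peroxidase found in plasma, had log2 signals of 12.99, 13.16 and 13.85 (lowest, median, highest) in banded mice with heart failure, 12.60, 13.00 and 13.39 in banded mice without heart failure and 11.67, 11.48, 11.86, 12.70 and 12.53 in sham mice. All mice with heart failure exceeded all sham mice, and the highest sham mouse overlapped the banded mice without heart failure. Gpx3 rose 2.39-fold in heart failure (1.25 ± 0.212, adjusted p = 0.000148) and 1.87-fold without heart failure (0.91 ± 0.212, adjusted p = 0.00672), and the banded groups differed by 0.35, with a 95% interval from -0.06 to 0.75 (adjusted p = 0.268).

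The sham mice divided along the 18S sets for Gpx3. The 3 sham arrays of high 18S signal had 11.48 to 11.86, and the 2 of low 18S signal had 12.53 and 12.70. Within the low 18S arrays, means were 13.30 in heart failure, 13.06 in banded mice without heart failure and 12.61 in sham, so that the difference between heart failure and sham was 0.69 and missed the threshold (adjusted p = 0.0533). With the 18S set as a block it was 0.94 (adjusted p = 0.00202), and within the series of animal numbers it was 1.82, 0.31 and 0.84. The 1.82 sets heart failure arrays of low 18S signal against sham arrays of high 18S signal. The call in mice without heart failure was lost in the low 18S arrays (0.45, adjusted p = 0.39) and with the actin covariate (0.57, adjusted p = 0.203) and held within the high 18S arrays, where means were 12.81 in banded mice without heart failure and 11.67 in sham mice. With the atrial markers as a covariate the difference between the banded groups was 0.70 and passed (adjusted p = 0.0356).

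Gpx1, the cytosolic glutathione peroxidase, was the only 1 of the 10 genes that separated all mice with heart failure from both other groups. It had log2 signals of 12.45, 12.48 and 12.57 (lowest, median, highest) in banded mice with heart failure, 12.13, 12.25 and 12.41 in banded mice without heart failure and 12.38, 12.00, 12.32, 12.01 and 12.21 in sham mice. The heart failure group was tight, and its lowest mouse (12.45) lay just above the highest of the other mice (12.41). The rise was 1.25-fold against sham (0.33 ± 0.0717, adjusted p = 0.00146) and 1.18-fold against banded mice without heart failure (0.24 ± 0.0655, adjusted p = 0.0266). Banded mice without heart failure differed from sham by 0.08 (95% interval -0.07 to 0.23, adjusted p = 0.452). Within the 3 series of animal numbers heart failure exceeded sham by 0.28, 0.46 and 0.32. The call between the banded groups was lost in the low 18S arrays (0.25, adjusted p = 0.0723), with the atrial markers as a covariate (0.21, adjusted p = 0.113) and without banded mouse 2 or 5 without heart failure or banded mouse 1 with heart failure (adjusted p up to 0.0658).

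Prdx3, which removes hydrogen peroxide inside mitochondria, fell in both banded groups. Its log2 signals were 12.77, 12.86 and 12.92 (lowest, median, highest) in banded mice with heart failure, 12.62, 12.93 and 13.03 in banded mice without heart failure and 13.01, 13.07, 13.09, 13.15 and 13.15 in sham mice. All mice with heart failure were below all sham mice, and among mice without heart failure 2 of 7 reached the sham range. Prdx3 was 1.18-fold lower in heart failure (-0.24 ± 0.0721, adjusted p = 0.0117) and 1.17-fold lower without heart failure (-0.23 ± 0.0721, adjusted p = 0.0376). Within the series of animal numbers the difference between heart failure and sham was -0.26, -0.26 and -0.29. In mice without heart failure the call was lost in the fit of only the 2 groups, in the low 18S arrays and in 7 of 19 fits that left out a mouse (banded mice 5, 6 or 7 without heart failure or sham mice 2, 3, 4 or 5, with adjusted p up to 0.0718). Banded mice 5 to 7 are the high 18S arrays of that group. Its difference from sham was -0.35 in the high 18S arrays and -0.16 in the low 18S arrays.

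Catalase, the peroxisomal enzyme that splits hydrogen peroxide, showed no call in any comparison or alternative. Cat had log2 signals of 12.38, 12.71 and 12.94 (lowest, median, highest) in banded mice with heart failure, 12.41, 12.65 and 12.91 in banded mice without heart failure and 12.85, 12.86, 12.68, 12.82 and 12.85 in sham mice. The banded mice spread to both sides of the sham mice. The 95% interval of the difference from sham was -0.29 to 0.09 in heart failure and -0.35 to 0.03 without heart failure, and the other Cat probe set had a difference of the opposite sign (0.09, adjusted p = 0.465).

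**Figure D3:**
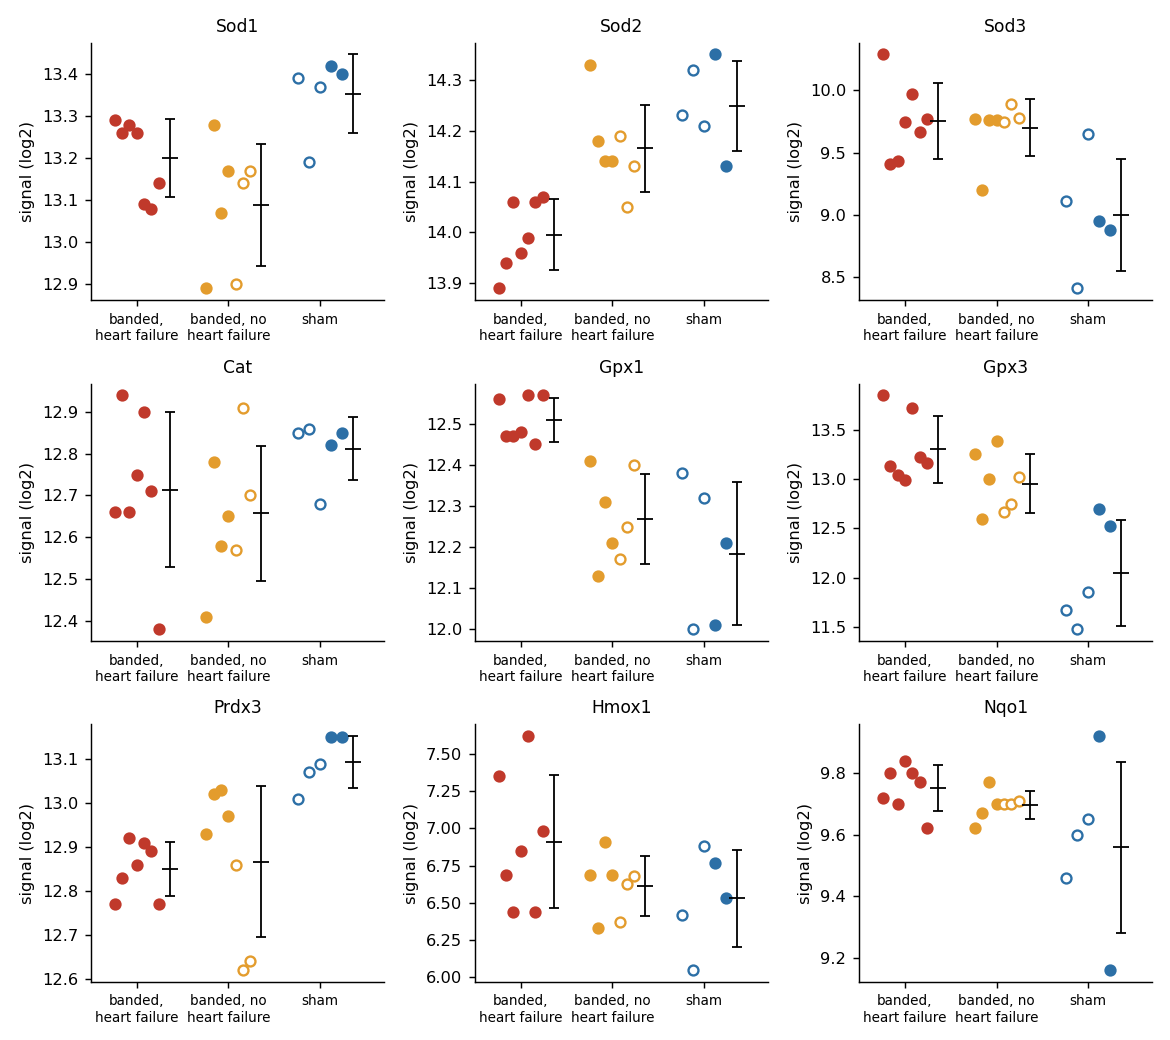
Log2 signal of the main probe set in each mouse for the 9 genes other than Nox4, with the group mean and SD beside the points and open circles for arrays of high 18S signal. The vertical axis of each panel has its own range. Gpx1 in mice with heart failure (12.45 to 12.57) lies above every other mouse, and for Gpx3 the 3 open sham points (11.48 to 11.86) lie below the 2 filled ones.

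The inducible genes Hmox1 and Nqo1 did not pass in any of the 3 comparisons. Hmox1 had log2 signals of 6.44, 6.85 and 7.62 (lowest, median, highest) in banded mice with heart failure, 6.33, 6.68 and 6.91 in banded mice without heart failure and 6.42, 6.05, 6.88, 6.77 and 6.53 in sham mice. In heart failure 3 of 7 mice, those at 7.35, 7.62 and 6.98, lay above all others and the remaining 4 lay within the range of the other groups. The 95% interval of the difference between heart failure and sham was -0.01 to 0.78 (0.38 ± 0.188, adjusted p = 0.114), and the difference passed with the atrial markers as a covariate (0.55, adjusted p = 0.0276).

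Nqo1 had log2 signals of 9.62, 9.77 and 9.84 (lowest, median, highest) in banded mice with heart failure, 9.62, 9.70 and 9.77 in banded mice without heart failure and 9.46, 9.60, 9.65, 9.92 and 9.16 in sham mice. The sham mice held both the highest and the lowest signal of the 19. The difference from sham was 0.19 (95% interval 0.01 to 0.38, adjusted p = 0.0938) in heart failure and 0.14 (95% interval -0.05 to 0.32, adjusted p = 0.298) without heart failure. Of the fits that left out 1 mouse, only the 1 without sham mouse 4, at 9.92, called Nqo1. There it was higher by 0.28 in heart failure (adjusted p = 0.00624) and by 0.23 without heart failure (adjusted p = 0.0377). Leaving out other mice gave differences down to 0.09 in heart failure and 0.04 without it, with adjusted p up to 0.32 and 0.739.

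Counted over probe sets, 12 of the 19 that passed the filter differed between heart failure and sham (6 higher, 6 lower), where 36.4% of all 20497 probe sets differed in either direction. Without heart failure, 8 differed from sham mice (5 higher, 3 lower), beside 14.2% of all probe sets. Between the banded groups 4 differed (3 higher, 1 lower), beside 5.91% of all probe sets. The dimmer Nox4 probe set is among these, although most of its sham signals lay under the filter. Probe sets of 1 gene share its transcripts and are not separate evidence.

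Among the 10 genes, the correlation of log2 signals over the 19 arrays was highest between Nox4 and Gpx3 (r = 0.771), Nox4 and Gpx1 (r = 0.744) and Sod3 and Gpx3 (r = 0.740). The most negative was between Sod2 and Gpx1 (r = -0.722). After each group's mean was subtracted, these values were 0.275, 0.313, 0.401 and -0.221, and the highest within groups were Sod3 with Hmox1 (0.741), Gpx3 with Hmox1 (0.658) and Sod3 with Gpx1 (0.639). The most negative within groups were Sod1 with Sod2 (-0.532) and Sod2 with Cat (-0.509). These values describe 19 arrays that share 3 groups and 1 joint normalization.

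By the same measure over all genes tested, the patterns most like that of Nox4 were those of Comp (r = 0.951), Thbs4 (r = 0.948) and Loxl3 (r = 0.947), and within groups the values were 0.789, 0.800 and 0.785. Comp and Thbs4 encode secreted thrombospondins and Loxl3 a lysyl oxidase-like enzyme. For Sod2 they were Uqcrc1 (r = 0.921), Suclg1 (r = 0.904) and Sdhb (r = 0.900), and for Prdx3 they were Suclg2 (r = 0.928), Idh3g (r = 0.919) and Nnt (r = 0.910). Uqcrc1 and Sdhb encode subunits of respiratory complexes, and Suclg1, Suclg2 and Idh3g subunits of citric acid cycle enzymes. For Gpx1 the nearest genes were Mfap5 (r = 0.928), Sulf1 (r = 0.923) and Tspo (r = 0.915), for Gpx3 Actn1, Ace and Pigk (r = 0.937, 0.934 and 0.934), and for Sod3 Rras, Rab32 and Evc (r = 0.909, 0.887 and 0.882). The nearest patterns to Hmox1 were Serpina3n, Lbp and Man2a1 (r = 0.894, 0.866 and 0.856), genes of which Serpina3n and Lbp encode acute-phase proteins. Cat, Nqo1 and Sod1 had weaker neighbours, led by Gnl2 (r = 0.818), Ilvbl (r = 0.853) and Prkaca (r = 0.794).

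Left ventricular weight over tibia length, taken from the labels as an index, was 8.09 to 9.75 in banded mice with heart failure, 6.42 to 7.59 in banded mice without heart failure and 4.82 to 5.47 in sham mice, with no overlap between groups. Within the 14 banded mice, and with group in the model, none of the 10 genes passed the test for a slope on this index. The slope of Nox4 was 0.20 ± 0.501 log2 units per unit of the index (adjusted p = 0.974) and that of Gpx3 0.29 ± 0.147 (adjusted p = 0.848, the smallest of the 10). Over all 10733 genes 0 passed in limma's moderated test (0%), and 643 had an unadjusted p under 0.05.

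**Figure D4:**
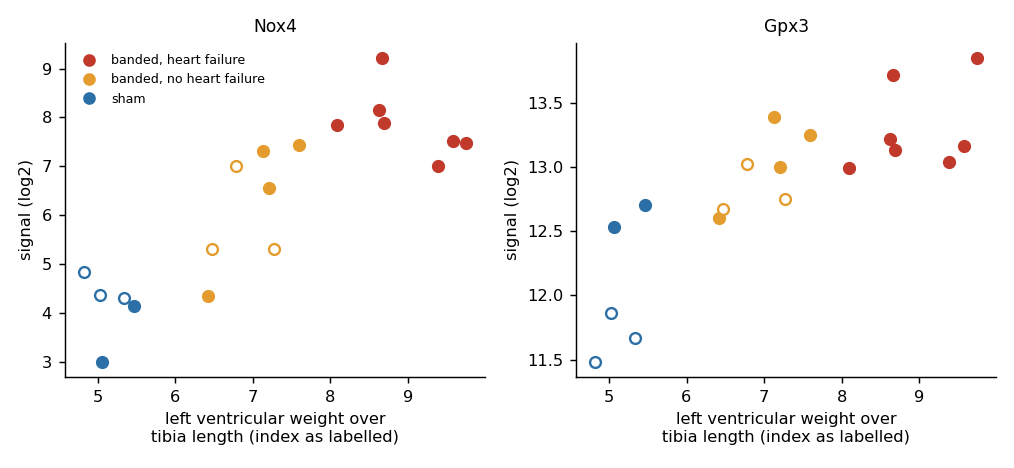
Log2 signal of Nox4 (left) and Gpx3 (right) against left ventricular weight over tibia length (index from the labels) in each mouse, with open circles for arrays of high 18S signal. The 7 mice with heart failure, at 8.09 to 9.75 on the index, have Nox4 signals of 7.00 to 9.22 and lie to the upper right of the 5 sham mice, at 4.82 to 5.47 with Nox4 signals of 2.99 to 4.84.

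The genes around these 10 were read in 9 lists of 146 genes, of which 119 were tested. In heart failure 26 rose and 34 fell against sham, in banded mice without heart failure 11 rose and 19 fell, and between the banded groups 5 were higher and 10 lower in heart failure. The lists were compiled by function, and their counts are read beside the shares of all genes given above.

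Of 14 other NADPH oxidase components 6 were tested and 1 rose in heart failure, Rac1, a small GTPase that activates the oxidases of phagocytes, by 0.18 log2 units (adjusted p = 0.0251). In the other comparisons 0 of the 6 passed limma's moderated test, with 1 at an unadjusted p under 0.05 without heart failure against sham and 0 between the banded groups. Cyba, the membrane subunit that stabilises Nox4, and Cybb, the phagocyte oxidase catalytic subunit, were singled out after their values were seen: they differed from sham by -0.14 (adjusted p = 0.217) and -0.02 (adjusted p = 0.957) in heart failure.

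Among 11 tested genes of other oxidant sources 3 rose and 5 fell in heart failure against sham. Alox5, a lipoxygenase of leukotriene synthesis, averaged 6.52 ± 0.37 in heart failure, 6.82 ± 0.29 in banded mice without heart failure and 8.20 ± 0.20 in sham mice (log2, SD, n = 7, 7 and 5), a fall of 3.21-fold in heart failure and 2.60-fold without (limma adjusted p = 6.75e-07 and 3.39e-05). Maob, a mitochondrial monoamine oxidase that makes hydrogen peroxide, was 2.02-fold lower in heart failure (limma adjusted p = 6.8e-06) and 1.66-fold lower without it (limma adjusted p = 0.000791), both against sham. Prodh, proline dehydrogenase, was 1.74-fold lower in heart failure than in sham mice (adjusted p = 0.00023) and 1.47-fold lower than in banded mice without heart failure (adjusted p = 0.0136). Ptgs2, the inducible cyclooxygenase, was higher by 1.62 log2 units in heart failure than in sham (adjusted p = 0.00242), with 2 of 5 sham arrays at or under the filter.

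The glutathione list, the largest of the 9, had the highest number of genes that fell. Of 26 tested, 3 rose and 12 fell in heart failure, 2 rose and 7 fell in banded mice without heart failure, and 0 were higher (2 at an unadjusted p under 0.05) and 5 lower between the banded groups by limma's moderated test, with medians of -0.2288, -0.0912 and -0.1057. Gstt1 and Gstk1, glutathione transferases of the theta and kappa classes, stepped down through the groups: Gstt1 averaged 7.18 ± 0.19 in heart failure, 7.86 ± 0.22 in banded mice without heart failure and 8.57 ± 0.17 in sham mice (log2, SD), and Gstk1 10.31 ± 0.16, 10.92 ± 0.16 and 11.41 ± 0.13. The falls against sham in heart failure were 2.62-fold for Gstt1 (adjusted p = 5.82e-08) and 2.15-fold for Gstk1 (adjusted p = 6.35e-08). Between the banded groups both were lower in heart failure, by 1.61-fold (adjusted p = 0.00125) and 1.53-fold (adjusted p = 0.000727). Gstm7, a mu-class transferase, was 1.89-fold lower in heart failure (adjusted p = 1.91e-06) and 1.55-fold lower without it (adjusted p = 0.000407), both against sham. Gclc, the catalytic subunit of the first step of glutathione synthesis, rose by 0.72 in heart failure (adjusted p = 1.3e-05) and was singled out after its value was seen.

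**Figure D5:**
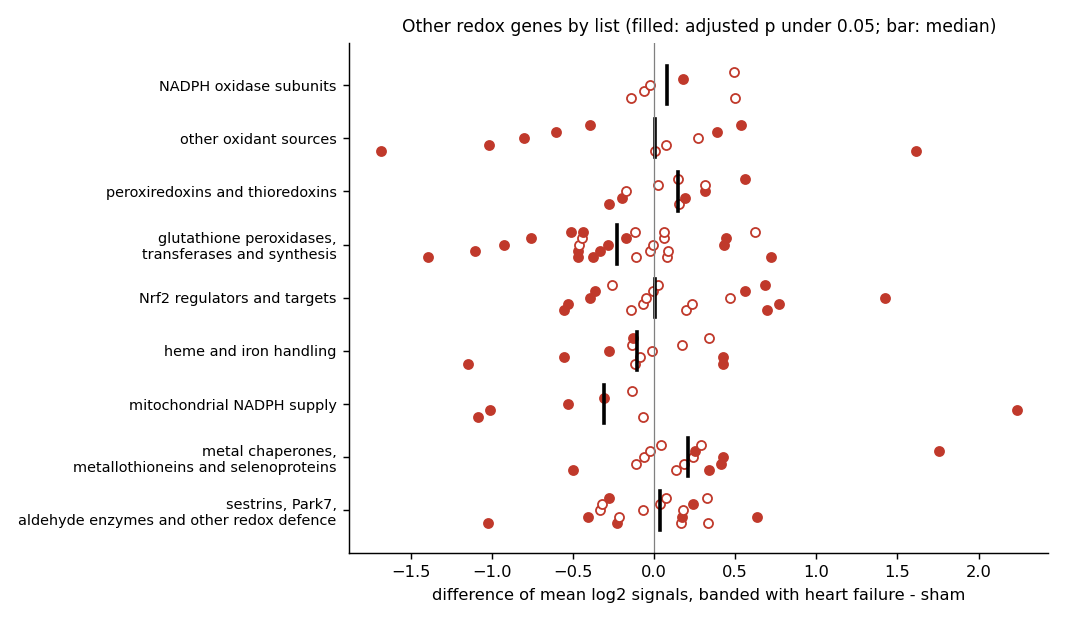
Difference of mean log2 signals between banded mice with heart failure and sham mice for each tested gene of the 9 lists, filled where the adjusted p was under 0.05, with the list's median as a bar. The glutathione list has 12 filled points left of 0 and 3 right of it, and the lowest filled point of the plot, at -1.68, is Alox5.

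Peroxiredoxins and thioredoxins other than Prdx3 gave 3 genes that rose and 2 that fell of 10 tested in heart failure. By limma's moderated test 0 of the 10 passed in the other comparisons, where 4 without heart failure against sham and 2 between the banded groups had an unadjusted p under 0.05. Srxn1, sulfiredoxin, which restores overoxidised peroxiredoxins, rose 1.48-fold (adjusted p = 0.00442) and Nxn, nucleoredoxin, 1.24-fold (adjusted p = 0.0426). Of 18 tested regulators and targets of Nrf2, 5 rose and 4 fell in heart failure. The small Maf gene Mafk, whose protein pairs with Nrf2, averaged 8.97 ± 0.24 in heart failure, 8.64 ± 0.14 in banded mice without heart failure and 8.20 ± 0.15 in sham mice, and rose in all 3 comparisons, by 0.77, 0.44 and 0.33 log2 units (adjusted p = 1.97e-05, 0.00814 and 0.042). Maff, another small Maf gene, rose 2.68-fold in heart failure (adjusted p = 0.00391). Nfe2l2, which encodes Nrf2, and Keap1, its inhibitor, were singled out after their values were seen and differed from sham by 0.02 (adjusted p = 0.902) and -0.14 (adjusted p = 0.177) in heart failure. Sqstm1, an autophagy receptor, was 1.60-fold higher in heart failure (adjusted p = 0.000918) and 1.33-fold higher without it (adjusted p = 0.0499), both against sham mice, and Pgd, which makes NADPH in the pentose phosphate pathway, 1.22-fold higher in heart failure than in banded mice without it (adjusted p = 0.0491).

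Of 12 heme and iron genes 2 rose and 4 fell in heart failure. Slc40a1, ferroportin, the iron exporter, averaged 8.08 ± 0.36 in heart failure, 8.67 ± 0.25 in banded mice without heart failure and 9.22 ± 0.23 in sham mice, 2.21-fold lower in heart failure than in sham (adjusted p = 2.67e-05) and 1.51-fold lower than in banded mice without heart failure (adjusted p = 0.0185). Blvrb, a biliverdin reductase, was 1.47-fold lower in heart failure (adjusted p = 0.00147) and Fech, ferrochelatase, was 1.21-fold lower in heart failure and 1.25-fold lower without it (adjusted p = 0.0126 and 0.0112), all against sham.

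All 7 genes of mitochondrial NADPH supply were tested; 1 rose and 4 fell in heart failure, and 1 rose and 3 fell without it, with medians of -0.31 and -0.20. Mthfd2, a mitochondrial folate enzyme, rose 4.71-fold in heart failure (adjusted p = 8.38e-08) and 2.87-fold without it (adjusted p = 3.27e-05), and was 1.64-fold higher in heart failure than in banded mice without it (adjusted p = 0.0146). Aldh1l2, another mitochondrial folate enzyme, was lower by 2.12-fold and 2.02-fold in banded mice with and without heart failure (adjusted p = 0.00412 and 0.0161). Nadk2, the mitochondrial NAD kinase, was 2.01-fold lower in heart failure and 1.60-fold lower without it against sham (adjusted p = 6.4e-07 and 0.000229), and 1.26-fold lower between the banded groups (adjusted p = 0.0321).

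Among 14 tested metal-binding and selenoprotein genes 5 rose and 1 fell in heart failure. The metallothionein gene Mt2 was 3.38-fold higher but variable, with 11.37 ± 1.09 in heart failure, 10.16 ± 0.85 in banded mice without heart failure and 9.61 ± 1.25 in sham mice (log2, SD; limma adjusted p = 0.0202 for heart failure against sham). Msrb2, a mitochondrial methionine sulfoxide reductase, fell 1.41-fold against sham (adjusted p = 5.88e-05) and 1.20-fold against banded mice without heart failure (adjusted p = 0.0253). The selenoprotein genes Selenow and Selenon rose 1.34-fold and 1.26-fold in heart failure (adjusted p = 0.00726 and 0.0136) and 1.37-fold and 1.29-fold without it (adjusted p = 0.011 and 0.0187). In the last list, of 17 tested genes of other redox defence, 3 rose and 4 fell in heart failure. Pon2, an intracellular paraoxonase, rose in all 3 comparisons, 1.56-fold in heart failure and 1.32-fold without it against sham and 1.18-fold between the banded groups (adjusted p = 5.23e-06, 0.00196 and 0.0423). Ucp3, a mitochondrial carrier, was 2.03-fold lower in heart failure (adjusted p = 0.0162), Oxr1 1.33-fold lower in heart failure and 1.24-fold lower without it (adjusted p = 0.000433 and 0.0102), and Sesn3, a sestrin, 1.18-fold higher in heart failure than in banded mice without it (adjusted p = 0.034).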

How the data were processed

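Total RNA from the left ventricle was measured on Affymetrix arrays, 1 per mouse, labelled with biotin per the labels' protocols. The deposited values are log2 signals that the authors made with GCRMA, per the submitters' processing notes; for the version, annotation and settings the sources used here give nothing. GCRMA corrects background with a sequence model, so that low signals crowd at a floor: 50.5% of values were under 3. Probe sets were named from the platform annotation, in which 34958 of 45101 had 1 symbol, 932 several and 9211 were not listed.

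Groups came from the labels. Probe sets above a log2 value of 4 on at least 5 arrays were kept, and the brightest per gene (10733 genes) was fitted with limma 3.58.1 in R 4.3.3 (lmFit and eBayes, group only, 19 arrays), with Benjamini-Hochberg adjustment over all genes and a threshold of 0.05. A second fit took 20497 probe sets, and another the slope on left ventricular weight within banded mice. Tested on simulated data with 10733 genes, the fit recovered 93% of genes changed by 1 log2 unit and 67% of those changed by 0.5 for heart failure against sham, with 11 of 171 calls false. The arrays behind each mean number 7, 7 and 5, which limits precision, and the highest correlation between 2 arrays was 0.9981. P-values measure the spread between mice.

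The 10 genes, the lists and the tests were chosen with earlier results of these data known. Named beside the 10 genes are, of each list and comparison, the 2 genes with the largest change past the threshold, marker genes past it where 5 or fewer passed, and the 3 genes most correlated with each of the 10. Alternatives were other filters, probe set rules and scalings, blocks and covariates, and leaving out each mouse; the atrial covariate was added after seeing the data.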

Additional observations from a re-analysis of the deposited data

Results flagged for a closer look

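Of 30 groups examined (the main probe set of each of the 10 genes in 3 groups), 3 held a mouse far from its fellows, where chance alone would mark about 1 group in 20. Sham mouse 2 had a Sod1 log2 signal of 13.19, with the next sham mouse at 13.37. Banded mouse 2 without heart failure had a Sod3 signal of 9.20, with the next of its group at 9.75; the same mouse was the lowest of its group for Nox4 (4.35), Gpx1 (12.13) and Gpx3 (12.60). Sham mouse 3 had a Cat signal of 12.68, with the next sham mouse at 12.82.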

How the results depend on the processing

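Of 940 values of the 10 genes under 13 alternatives and 19 fits that each left out 1 mouse, 887 kept their side of the threshold, 46 lost a call, 7 gained one and 0 reversed a call; among the 887, 8 values that were not called changed sign. The limits are the 2 sham arrays in the low 18S set, the absence of heart failure from the high 18S set, and the actin difference, which does not overlap between banded and sham mice. Against sham, heart failure gave 4220 genes, 2670 in the low 18S arrays and 2705 with the actin covariate. Banded mice without heart failure gave 1865 genes, 343 in the low 18S arrays and 1199 with the actin covariate. Of the 10 genes 5 were called there, 0 in the low 18S arrays, 2 in the high 18S arrays and 1 with the actin covariate. Of their probe sets 8 were called, 5 without the filter, 5 in the fit of 2 groups, 0 in the low and 2 in the high 18S arrays and 2 with the actin covariate. Between the banded groups 1017 genes were called and 149 in the low 18S arrays, 3 and 0 of the 10 genes, and 4 probe sets against 1 without the filter, 2 with the 18S set as a block and 0 in the low 18S arrays; fewer arrays were fitted in the 18S sets, and otherwise the cause was not tested. Leaving out 1 mouse gave 1185 to 2200 genes and 4 to 8 probe sets for mice without heart failure against sham (lowest without sham mouse 2), and 508 to 1146 genes, 0 to 3 of the 10 genes and 1 to 5 probe sets between the banded groups (lowest without banded mouse 5 without heart failure). Other mice that lowered a count by over 1.5 times were banded mice 1 and 7 without heart failure and sham mouse 1 in the first of these comparisons, and banded mice 2 and 6 without heart failure and banded mice 1, 2, 4 and 5 with heart failure in the second. Among the named marker and list genes 3 calls were lost with a change of sign: Pecam1 (-0.0003, adjusted p = 0.999) and Esam (-0.02, adjusted p = 0.91) in heart failure against sham with the actin covariate, and Sesn3 (-0.00065, adjusted p = 0.997) between the banded groups with the mean of its probe sets. The cause was not tested. For marker and list genes, changes of sign without a call in either fit were not counted. No paired analysis was possible because the labels give animal numbers but no replicate number shared between groups. With the series of animal numbers as a block, 6, 5 and 3 of the 10 genes were called in the 3 comparisons. All high 18S arrays lie in the first series, beside its heart failure arrays of low 18S signal, so this block does not separate the 18S sets.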

Other observations

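In heart failure against sham, 3 of 8 endothelial markers rose (Tie1 by 0.42, Pecam1 by 0.37 and Esam by 0.29 log2 units, adjusted p = 0.0171, 0.0206 and 0.0451), and 3 of 8 smooth muscle and pericyte markers rose (Cspg4 by 0.84, Tagln by 0.83 and Pdgfrb by 0.39, adjusted p = 4.35e-05, 0.0328 and 0.0179). The other 5 endothelial markers were not called. One of the 8, Cdh5, differed by -0.37 between the banded groups (limma adjusted p = 0.0417). It averaged 9.73 in banded mice with heart failure, 10.10 in banded mice without heart failure and 9.88 in sham mice. Among 10 cardiomyocyte markers Mybpc3 rose by 0.27 (adjusted p = 0.000672), and Tnni3, Ryr2, Pln and Myh6 had differences of -0.27, -0.23, -0.17 and -0.15 (adjusted p = 0.000276, 0.0201, 0.00243 and 0.0231). Their mean log2 signal was 15.36 to 15.47 in banded mice with heart failure, 15.44 to 15.51 in banded mice without heart failure and 15.40 to 15.53 in sham mice. Of 6 atrial markers 5 were tested: Nppa rose by 2.18 in heart failure and 1.92 without it (adjusted p = 1.13e-08 and 3.94e-07), and Kcnj3 differed by -1.59 and -0.79 (adjusted p = 4.82e-06 and 0.00896). The atrial myosin light chain Myl7 averaged 6.59 ± 4.40 in banded mice with heart failure, 11.52 ± 1.62 in banded mice without heart failure and 10.27 ± 1.95 in sham mice (log2, SD), with 4 of 7 mice with heart failure above the filter. Between the banded groups Kcnj3 (-0.80, limma adjusted p = 0.00972) and Myl7 (limma adjusted p = 0.0457) were called, both lower in heart failure. The lists for red blood cells and fat cells had 2 tested genes each, and 0 passed limma's moderated test in any comparison, nor did any have an unadjusted p under 0.05.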
